A study of Homo sapiens with 14 samples.

Results

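The zinc finger genes of human chromosome 19 were taken as every gene that the 4 deposited peak lists name as the nearest transcript of a peak on chromosome 19, with the biotype protein_coding and a symbol that starts with ZNF. The rule gave 111 genes, of 13808 protein_coding genes named in the lists as a whole. All 111 symbols are also chromosome 19 genes in RefSeq. They were set against the 826 other protein_coding genes of chromosome 19 and, as a further comparison, the 197 ZNF genes named on other chromosomes.

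The lists come from chromatin immunoprecipitation followed by sequencing (ChIP-seq) in HL60, an established human acute myeloid leukaemia cell line. SKI was precipitated from unmodified HL60 cells in 2 replicates and from 1 sample of CRISPR/Cas9 control HL60 cells, and RUNX1 from 1 sample of unmodified HL60 cells, each with its own antibody. The other 10 of the 14 samples, among them the IgG controls and the SKI-deleted cells, were not analysed here. No source used here says whether the 2 unmodified replicates came from separate cultures.

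Most ZNF genes of chromosome 19 encode C2H2 zinc finger proteins with a KRAB domain, which recruits the corepressor TRIM28 and, through it, SETDB1 and heterochromatin proteins. Many of these proteins bind and silence retroelements, and their genes lie in clusters that grew by repeated local duplication. SKI is itself a corepressor, known as an inhibitor of SMAD signalling, and RUNX1 is a DNA-binding regulator of blood cell development and a frequent target of mutation in myeloid leukaemia.

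The replicate 1 list of unmodified cells stood apart in length. It held 54841 SKI peaks, against 14431 in replicate 2 and 14019 in control cells, and the RUNX1 list held 5581. On chromosome 19 the lists held 2543, 748, 815 and 209 peaks in the same order. All ZNF genes had a SKI peak in at least 1 of the 3 SKI lists, as did 99.9% of the protein_coding genes named on the chromosome. A gene enters the set with 1 peak in any list, and 108 of the 111 ZNF genes had a peak in replicate 1 (97.3%), as did 97.7% of all 937 protein_coding genes named on the chromosome. A shared SKI site, meaning a region with overlapping SKI peaks from all 3 SKI lists, was therefore used as the main measure. Read depth is not given in the lists, so the number of sequence tags under a peak and the fold enrichment over background were compared within a list only. There was 1 list per group or replicate, so no test was made. The 95% Wilson intervals given with shares cover counting error only.

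The promoters of 5 ZNF genes with a shared SKI site at the transcription start site (TSS) are shown. A site qualified where its strongest peak lay within 100 bp of a TSS in most SKI lists. Among these, the 5 genes whose worst rank of fold enrichment over the SKI lists was best were taken. This rule uses no motif match. The sequences are RefSeq's, build GRCh38.p14, from 250 bases before to 50 bases after the gene start, 5′ to 3′ on the gene's strand. The build differs from that of the peak coordinates, which is hg19. The TSS named for a peak need not be the RefSeq gene start, nor the same in each list. For ZNF580 the distances were 18, -14 and 0 bp, yet the replicate 2 summit lay 1125 bp from another SKI summit. The lists thus name more than 1 start there, and the window shows 1 start only. Capitals mark the core of the RUNX motif (TGTGGT or TGCGGT) and the core of the ETS motif (CCGGAAG), on either strand. The windows are chr19:44002707-44003006 (plus strand) for ZNF230, chr19:55640752-55641051 (plus strand) for ZNF580, chr19:12551433-12551732 (minus strand) for ZNF564, chr19:12440972-12441271 (minus strand) for ZNF443 and chr19:43532938-43533237 (plus strand) for ZNF575.
ZNF230: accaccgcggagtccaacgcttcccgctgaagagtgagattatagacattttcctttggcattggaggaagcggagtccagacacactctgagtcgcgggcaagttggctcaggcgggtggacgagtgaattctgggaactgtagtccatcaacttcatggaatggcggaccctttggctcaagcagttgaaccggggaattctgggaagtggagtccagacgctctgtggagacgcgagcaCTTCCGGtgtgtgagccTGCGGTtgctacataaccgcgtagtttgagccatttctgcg
ZNF580: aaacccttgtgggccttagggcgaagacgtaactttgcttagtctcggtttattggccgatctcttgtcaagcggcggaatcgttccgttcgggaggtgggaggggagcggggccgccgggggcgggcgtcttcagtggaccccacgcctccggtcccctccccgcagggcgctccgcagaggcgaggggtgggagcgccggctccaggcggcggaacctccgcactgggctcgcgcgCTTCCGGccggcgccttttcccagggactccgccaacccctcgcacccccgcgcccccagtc
ZNF564: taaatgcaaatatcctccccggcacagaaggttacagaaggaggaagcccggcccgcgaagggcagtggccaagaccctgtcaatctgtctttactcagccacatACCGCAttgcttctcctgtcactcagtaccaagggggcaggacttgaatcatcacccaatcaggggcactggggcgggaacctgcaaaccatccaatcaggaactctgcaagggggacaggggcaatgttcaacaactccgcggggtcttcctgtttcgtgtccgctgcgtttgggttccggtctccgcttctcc
ZNF443: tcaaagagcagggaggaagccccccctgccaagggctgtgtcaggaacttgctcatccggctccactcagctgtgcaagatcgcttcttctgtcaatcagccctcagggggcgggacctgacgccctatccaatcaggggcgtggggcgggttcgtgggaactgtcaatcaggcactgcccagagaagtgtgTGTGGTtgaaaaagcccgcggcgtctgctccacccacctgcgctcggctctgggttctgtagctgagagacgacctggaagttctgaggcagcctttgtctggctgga
ZNF575: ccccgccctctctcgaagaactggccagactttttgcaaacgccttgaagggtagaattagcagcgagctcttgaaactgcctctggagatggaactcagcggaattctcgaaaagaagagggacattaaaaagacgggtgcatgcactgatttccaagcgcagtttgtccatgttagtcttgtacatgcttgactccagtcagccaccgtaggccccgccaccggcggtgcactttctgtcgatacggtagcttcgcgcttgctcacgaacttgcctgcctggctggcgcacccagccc

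ZNF230 holds both cores close to its start, ZNF580 an ETS core, ZNF564 and ZNF443 a RUNX core, and ZNF575 neither. Of the 111 genes, 100 had a promoter in the RefSeq table, including all 21 with a shared SKI site. The ETS core stood in 6 of these 21 promoters (28.6%) and in 33 of the 79 promoters of named ZNF genes without a shared site (41.8%). It stood in 59 of 116 promoters of chromosome 19 ZNF genes that no list names (50.9%). Among the other protein_coding genes of the chromosome it stood in 13.9% of promoters with a shared site and 16.1% of promoters of named genes without one, and over all 15812 protein_coding promoters in 14.2%. The interval of the 21 promoters with a shared site (13.8% to 50%) overlaps that of the other named ZNF promoters (31.5% to 52.8%) and reaches the share of all promoters. The intervals of the ZNF promoters without a shared site, named or not (41.9% to 59.8%), lie above it.

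The RUNX core varied less between these groups. It stood in 23.8% of the promoters with a shared site, 19% of the other named ZNF promoters, 15.5% of the ZNF promoters not named and 18.6% of all promoters. The SMAD box (CAGAC) stood in 33.3%, 48.1%, 44% and 44.1% in the same order, and the E-box (CACGTG) in 4.76%, 5.06%, 3.45% and 8.87%. Median GC content was 62.3% with a shared site, 61.7% in the other named ZNF promoters, 58.3% in those not named and 62.7% over all promoters. The ZNF promoters that no list names were the poorest in GC. A match to a motif is a description of these letters and not a binding site.

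ZNF genes of chromosome 19 carried a shared SKI site less often than their neighbours. A shared site was found for 21 of the 111 ZNF genes (18.9%, 12.7% to 27.2%), against 311 of the 826 other protein_coding genes (37.7%, 34.4% to 41%). Over both groups together 35.4% of the genes had one. ZNF genes on other chromosomes had a shared site in 73 of 197 cases (37.1%, 30.6% to 44%), close to the share of the non-ZNF genes of chromosome 19. The difference between the ZNF and the other genes of chromosome 19 was -18.7 percentage points (-25.8 to -9.84, Newcombe's interval). The count depended on the lists. Without the long replicate 1 list 20 ZNF genes had a shared site and the difference was -19.1 percentage points, and without replicate 2 there were 32 and it was -19.2 percentage points. With SKI lists held to 5581 peaks each, the length of the RUNX1 list, there were 6 and it was -7.79 percentage points (-11.6 to -1.53).

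**Figure D1:**
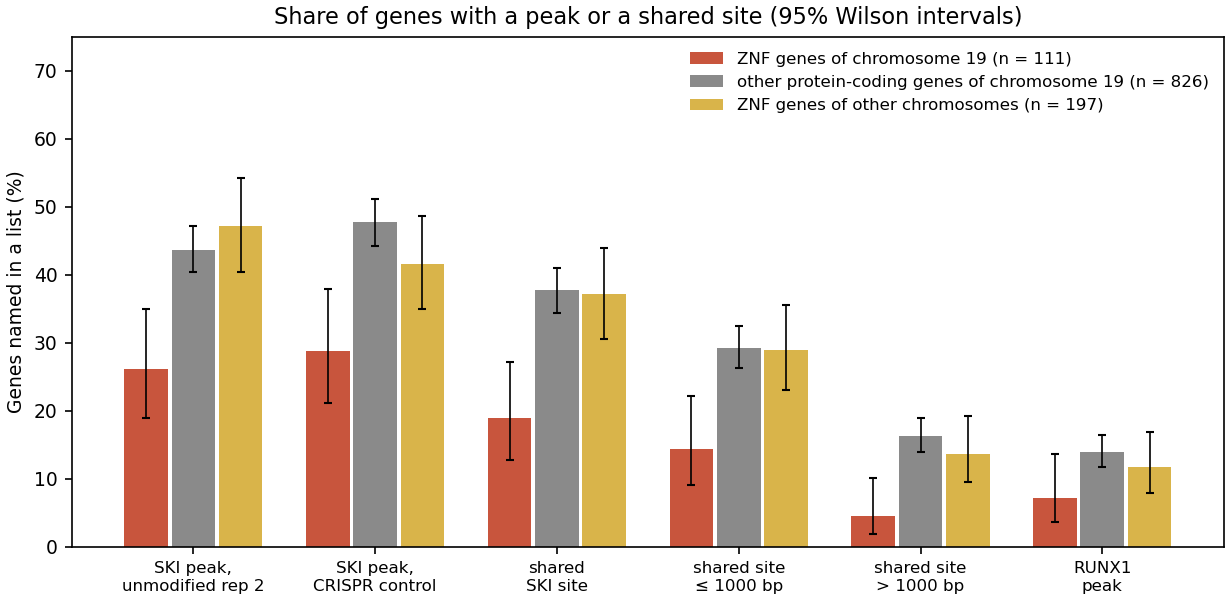
Share of genes (y axis, percent of genes named in any list) with a SKI peak in replicate 2 or in CRISPR control cells, with a shared SKI site (all, at most 1000 bp from a TSS, and farther), and with a RUNX1 peak. Bars stand for the 111 ZNF genes and 826 other protein-coding genes of chromosome 19 and the 197 ZNF genes of other chromosomes, and lines for 95% Wilson intervals. The chromosome 19 ZNF bar is the lowest of the 3 in every call shown.

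The single lists gave the same order. In replicate 2, 29 ZNF genes had a peak (26.1%), against 43.7% of the other genes and 41.6% of all protein_coding genes of the chromosome. In control cells, 32 ZNF genes had one (28.8%), against 47.7% of the other genes and 45.5% of all. Replicate 1 was the only list with a peak for 71 ZNF genes (64%, 54.7% to 72.3%), against 369 of the other genes (44.7%, 41.3% to 48.1%) and 47% of all. The strongest replicate 1 peaks of these 71 genes ran from 4.09-fold to 37.1-fold with a median of 11.5-fold, and from 34 to 382 tags with a median of 83 tags.

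Counting only genes that a list names leaves out ZNF genes with no peak at all. The RefSeq table used here holds 246 protein_coding ZNF symbols on chromosome 19, of which 111 were named in a list (45.1%, 39% to 51.4%). Of 1201 other RefSeq genes of the chromosome, 795 were named (66.2%, 63.5% to 68.8%), and 30 named genes had no RefSeq match. On this base a peak in replicate 1 alone stood at 28.9% of ZNF genes (23.6% to 34.8%), against 29% of the other genes (26.5% to 31.6%). The difference in that call given above is thus seen on the base of named genes only. On the same base a shared site was found for 8.54% of ZNF genes (5.65% to 12.7%), against 25.2% of the other genes (22.9% to 27.8%). Each peak is tied to its nearest transcript only, so a ZNF gene beside another start site can go unnamed.

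Fewer peaks lay at each ZNF gene as well. ZNF genes of chromosome 19 held 144, 36 and 37 SKI peaks in replicate 1, replicate 2 and control cells, and 9 RUNX1 peaks. Peaks per gene with a peak were 1.33 in replicate 1, 1.24 in replicate 2, 1.16 in control cells and 1.12 for RUNX1, against 2.29, 1.56, 1.58 and 1.23 for the other genes in the same order. Over all 4 lists, 65 of the ZNF genes had a single peak. ZNF444 had the most SKI peaks, 9, followed by ZNF414 and ZNF575 with 7 each and ZNF175, ZNF580 and ZNF791 with 6 each.

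SKI peaks of ZNF genes sat mostly at the TSS. The authors' TSS class took 114 of 144 replicate 1 peaks (79.2%, 71.8% to 85%), 28 of 36 replicate 2 peaks (77.8%, 61.9% to 88.3%) and 29 of 37 control cell peaks (78.4%, 62.8% to 88.6%). For the other genes it took 54.8% (52.6% to 57.1%), 64.8% (60.8% to 68.7%) and 65.4% (61.6% to 69%) in the same order. For ZNF genes on other chromosomes it took 58.4% (53.4% to 63.2%), 72.1% (64.2% to 78.9%) and 69.4% (60.2% to 77.3%). The intervals of the 2 groups of ZNF genes overlap in replicate 2 and in control cells, and do not overlap in replicate 1. The median distance from a ZNF peak to the TSS was 76.5, 127 and 100 bp, against 1210, 571 and 588 bp for the other genes. Intronic peaks made up 11.1% of ZNF peaks in replicate 1, against 19.9% of the other genes' peaks, and exonic peaks 2.08%, against 8.98%.

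The order of the shares was the opposite among the strongest peaks, though on few peaks. When each SKI list was held to its 5581 strongest peaks by −log10 p, the length of the RUNX1 list, ZNF genes kept 10 peaks in each SKI list. Of these 4 were in the TSS class in replicate 1 (40%), 3 in replicate 2 (30%) and 3 in control cells (30%), against 62.6%, 58.8% and 61.3% of the other genes' peaks. The ZNF share at the TSS was thus above that of the other genes in the full lists and below it among the strongest peaks. The intervals on 10 peaks are wide and overlap those of the other genes in each SKI list. They were 16.8% to 68.7% against 55.7% to 68.9% in replicate 1, and 10.8% to 60.3% against 55.1% to 67.1% in control cells. In the full lists the intervals overlap in replicate 2 and control cells, and not in replicate 1.

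**Figure D2:**
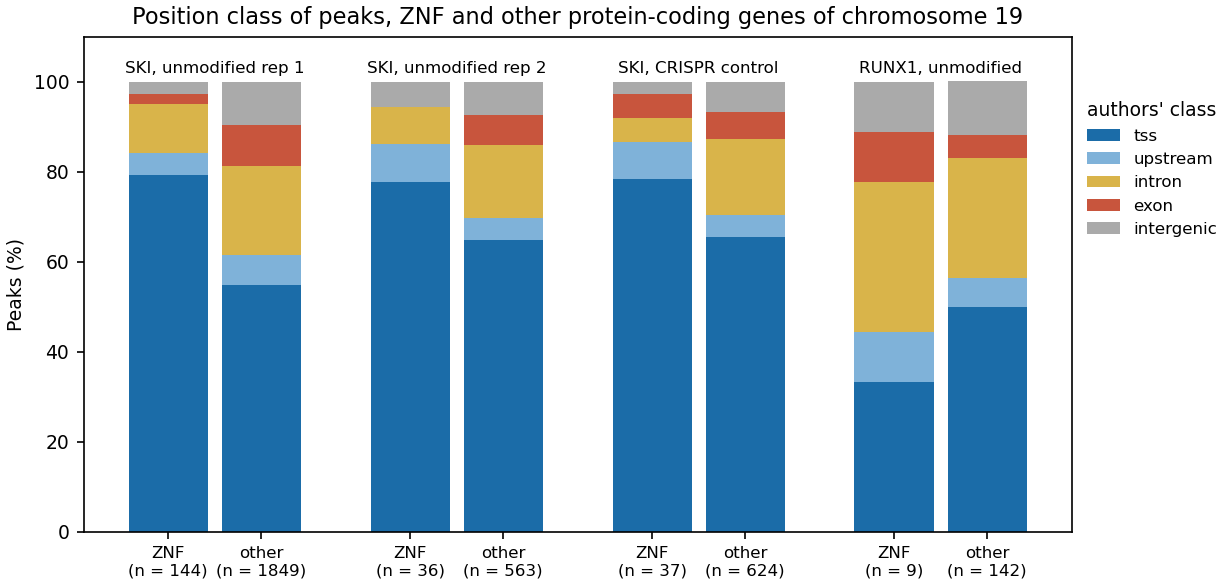
Share of peaks (y axis, percent) in each of the authors' position classes, for ZNF genes and for other protein-coding genes of chromosome 19 in each list, with the number of peaks under each bar. The TSS class takes 77.8% to 79.2% of ZNF peaks in the SKI lists and 54.8% to 65.4% of the other genes' peaks, while 3 of the 9 RUNX1 peaks of ZNF genes are in it.

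Within the TSS class, ZNF peaks were weaker in replicate 1. Their median fold enrichment was 12.7-fold (11.7 to 15.2) over 114 peaks, against 18.3-fold (17.3 to 19.6) over 1014 peaks of the other genes, and their median tag number was 116 (88 to 136), against 149 (139 to 159). In replicate 2 the medians were 8.54-fold (6.72 to 10.8) and 10-fold (9.53 to 10.6), and in control cells 8.64-fold (7.27 to 10.3) and 9.59-fold (8.86 to 10.4), with the ZNF genes given first in each pair. The intervals of the medians overlap in replicate 2 and in control cells, and do not overlap in replicate 1. Over all position classes the median tags of ZNF peaks were 98.5 in replicate 1, 49.5 in replicate 2, 57 in control cells and 65 for RUNX1, against 112, 54, 62 and 56 for the other genes.

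Outside the TSS class the order of tags differed between lists. In replicate 1 the 30 such ZNF peaks had a median of 57 tags, against 78 tags over 835 peaks of the other genes. In replicate 2 the 8 such ZNF peaks had a median of 94.5 tags, against 55 tags over 198 peaks, and in control cells the 8 had 110 tags, against 63 tags over 216 peaks. The distal ZNF peaks of the shorter lists spanned a wide range, from 36 to 203 tags in replicate 2 and from 41 to 631 tags in control cells.

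How often a replicate 1 TSS peak recurred moved with its strength. Of the 114 ZNF peaks in the TSS class, 14% lay in a shared site, against 26.1% of the 1014 peaks of the other genes. Under 10-fold enrichment, 0 of 35 ZNF peaks recurred, which allows a share of up to 9.89%, against 1.46% of the other genes' peaks. From 10-fold to 20-fold the shares were 6.38% for ZNF genes and 4.14% for the others, and from 20-fold to 40-fold they were 34.8% and 33.3%. At 40-fold or more, 5 of 9 ZNF peaks recurred (55.6%, 26.7% to 81.1%), against 79.3% of the other genes' peaks (73.1% to 84.4%). The intervals of the ZNF and the other genes overlap in each of the 4 ranges. Only 7.89% of the ZNF peaks reached 40-fold, against 19.5% of the other genes' peaks.

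**Figure D3:**
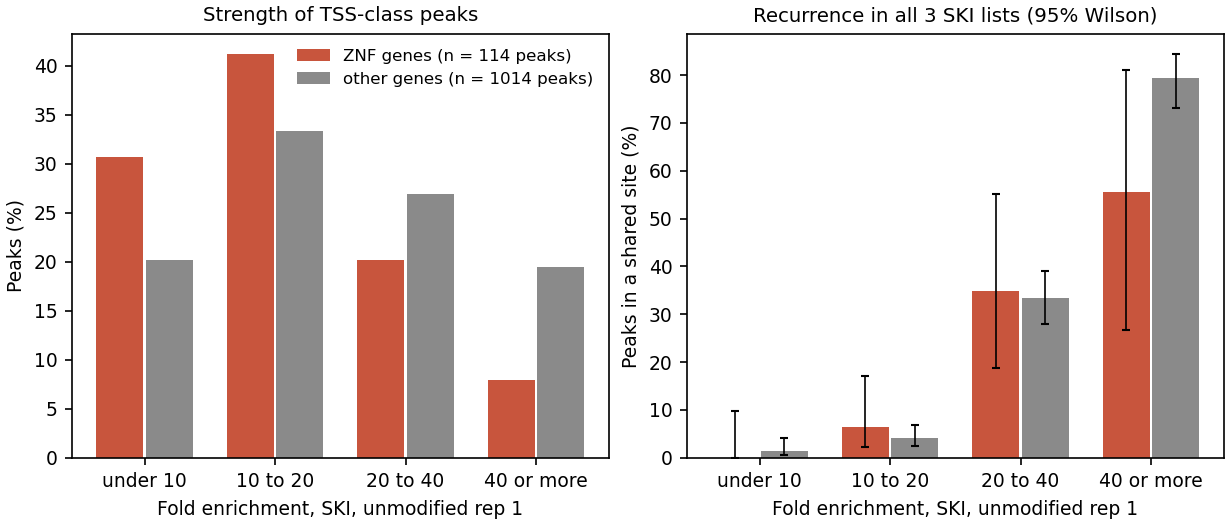
TSS-class SKI peaks of unmodified replicate 1 by fold enrichment (x axis, ranges of fold over background), for ZNF genes and other protein-coding genes of chromosome 19. The left panel gives the share of each group's peaks in a range, with 41.2% of ZNF peaks and 33.3% of the others from 10-fold to 20-fold. The right panel gives the share of those peaks in a shared site, with 95% Wilson intervals.

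The 21 ZNF genes with a shared site had 23 such sites. Their fold enrichment ran from 14.7-fold to 155-fold in replicate 1, from 5.05-fold to 61.6-fold in replicate 2 and from 5.81-fold to 104-fold in control cells. The 3 SKI summits lay within 100 bp of each other in 16 of the 23 sites. The 7 sites farther than 1000 bp from a TSS belonged to 5 genes, 4.5% of the ZNF genes, against 16.3% of the other genes and 14.9% of all. Sites at most 1000 bp from a TSS were found for 16 ZNF genes (14.4%), against 29.3% of the other genes and 27.5% of all.

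ZNF175, whose KRAB zinc finger protein is known as a repressor of HIV transcription in macrophages, had the strongest shared site by rank. The site lies at chr19:52088892-52090006 (hg19), classed as exon in 2 lists and as intron in replicate 2, 4886 to 4965 bp downstream of a TSS. It measured 83.79-fold with 497 tags in replicate 1, 61.61-fold with 203 tags in replicate 2 and 103.82-fold with 631 tags in control cells. It was rank 54 of 14019 by fold in control cells, rank 164 of 14431 in replicate 2 and rank 2139 of 54841 in replicate 1. The RUNX1 list holds no peak there. At the start sites of ZNF175 the peaks were weaker, at most 20.62-fold in replicate 1 and 7.4-fold in control cells, with none in replicate 2.

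ZNF627, a KRAB zinc finger gene of the short arm, had the strongest site at a TSS. The site at chr19:11707629-11709218 lay 372 to 421 bp downstream of a TSS and measured 99.08-fold with 769 tags in replicate 1, 35.3-fold with 181 tags in replicate 2 and 43.02-fold with 268 tags in control cells. The RUNX1 peak there reached 111.11-fold with 270 tags, rank 47 of 5581 in its list. Its summit was 19 bp from the nearest SKI summit. ZNF627 is thus high in all 4 lists.

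ZNF444, a zinc finger gene with a SCAN domain and no KRAB domain, had 2 shared sites downstream of its start. The farther one, at chr19:56674854-56676069 and 6774 to 6789 bp from a TSS, measured 78.45-fold, 27.49-fold and 36.82-fold in replicate 1, replicate 2 and control cells. The RUNX1 peak in it reached 105.82-fold with 155 tags, rank 57 of 5581. The nearer site, at chr19:56673220-56674396, measured 44.24-fold, 11.95-fold and 14.66-fold and held no RUNX1 peak. The neighbouring sites of 1 gene therefore differed in RUNX1.

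ZNF791, a KRAB zinc finger gene, had 2 shared sites in an intron, and RUNX1 peaks in both. The site at chr19:12724145-12725175 measured 155.11-fold, 46.35-fold and 26.7-fold for SKI in the same order of lists, and 31.33-fold for RUNX1. The site at chr19:12723449-12724104 measured 104.23-fold, 21.8-fold and 19.47-fold for SKI, and 11.48-fold for RUNX1. The first was the higher of the pair in each of the 4 lists. ZNF791 shares a divergent promoter with ZNF490, another KRAB zinc finger gene, whose own shared site measured 14.65-fold, 8.71-fold and 7.06-fold.

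Upstream sites marked ZNF77 and ZNF414. ZNF77, a KRAB zinc finger gene, had a site at chr19:2949650-2950978, at -5676 to -5620 bp from its TSS, with 42.56-fold, 14.66-fold and 16.91-fold in the 3 SKI lists and no RUNX1 peak. ZNF414, a C2H2 gene without a KRAB domain, had one at chr19:8582166-8583359, at -3561 to -3504 bp from its TSS, with 61.3-fold, 12.04-fold and 14.31-fold for SKI and 10.82-fold for RUNX1. ZNF414 also had SKI peaks nearer its start in both unmodified replicates, at -97 and -91 bp and at -1377 and -1269 bp, which control cells did not list.

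Promoter sites made up most of the remainder. ZNF230, one of the KRAB genes related to ZNF224, had its site 2 to 7 bp from the TSS with 56.47-fold, 21.99-fold and 10.5-fold. ZNF580, a zinc finger gene without a KRAB domain known from endothelial cells, and its neighbour ZNF581 shared a joined site of 5 peaks at chr19:56151317-56155244. ZNF581 is named there by a control cell peak alone, and CCDC106 is also named at the site. The strongest peaks of the site were 68.75-fold, 9.16-fold and 16.61-fold. The replicate 2 summit lay 1125 bp from another SKI summit, the largest span of the 23 sites. ZNF564, a KRAB gene, measured 29.52-fold, 9.49-fold and 10.31-fold. ZNF575 had shared sites at 2 start sites, with 20.96-fold, 11.44-fold and 8.21-fold at one and 39.13-fold, 5.05-fold and 13.21-fold at the other.

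The other genes with a shared site were ZNF101, ZNF274, ZNF296, ZNF443, ZNF446, ZNF766, ZNF787, ZNF799 and ZNF837. ZNF274 is named here after its values were seen, for what its protein is known to do, which is to bind the 3′ ends of zinc finger genes and recruit SETDB1 through TRIM28. Its promoter site measured 20.62-fold, 7.17-fold and 10.06-fold in replicate 1, replicate 2 and control cells, against medians of 42.6-fold, 11.4-fold and 10.5-fold over the 23 sites.

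**Figure D4:**
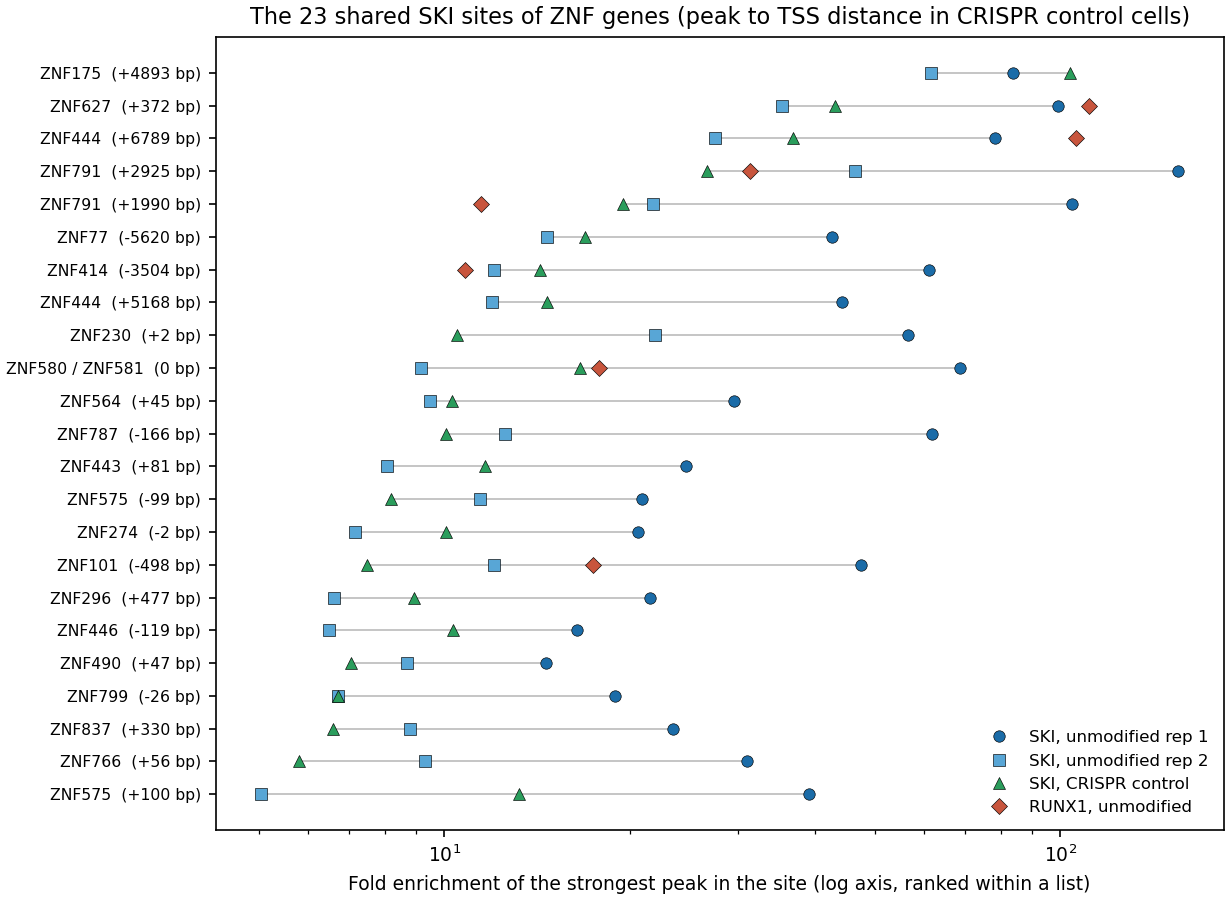
Fold enrichment (x axis, log scale) of the strongest peak in each of the 23 shared SKI sites of ZNF genes, ordered from top to bottom by the worst rank over the 3 SKI lists, with the distance to the TSS beside the gene name. Circles, squares and triangles stand for SKI in unmodified replicate 1, unmodified replicate 2 and CRISPR control cells, and diamonds for RUNX1, which is present in 7 sites. ZNF175 stands highest in control cells at 103.82-fold, and ZNF627 highest for RUNX1 at 111.11-fold.

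RUNX1 peaks were few at ZNF genes. A RUNX1 peak was found for 8 of the 111 ZNF genes (7.21%, 3.7% to 13.6%), against 115 of the 826 other genes (13.9%, 11.7% to 16.5%) and 13.1% of all. The difference was -6.72 percentage points (-11 to 0.0249), an interval that includes 0. On the RefSeq base the shares were 3.25% of ZNF genes (1.66% to 6.28%) and 9.24% of the other genes (7.73% to 11%), with intervals that do not overlap. Of the 9 RUNX1 peaks at ZNF genes, 7 fell on shared SKI sites, those of ZNF627, ZNF444, ZNF791 (both peaks), ZNF101, ZNF414 and ZNF580 (77.8%, 45.3% to 93.7%). Of the 142 RUNX1 peaks of the other genes, 109 did so (76.8%, 69.2% to 82.9%), and 56.2% of all 5581 RUNX1 peaks did, so the ZNF share was close to that of the other genes of the chromosome. In these 7 sites the RUNX1 summit was 1 to 79 bp from the nearest SKI summit.

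The other RUNX1 peaks overlapped SKI in some lists. The peak of ZNF784, a zinc finger gene without a KRAB domain, lay in an exon 3955 bp from the TSS with 27.29-fold, over SKI peaks of 42.31-fold in replicate 1 and 14.69-fold in control cells. That of ZNF507, also without a KRAB domain, lay in an intron 6377 bp from the TSS with 21.71-fold, over a SKI peak of 21.87-fold in replicate 1 alone. The RUNX1 peak of ZNF580 (17.86-fold) overlapped SKI peaks of replicate 1 and control cells directly, but not the replicate 2 peak of its joined site. The promoter of ZNF101, a KRAB gene, had 17.42-fold for RUNX1 and 47.44-fold, 12.04-fold and 7.5-fold for SKI. All 9 RUNX1 peaks overlapped a SKI peak of the long replicate 1 list, against 134 of the 142 peaks of the other genes (94.4%) and 92.9% of all RUNX1 peaks, so this overlap is common to the lists as a whole.

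Counted from the SKI sites, the intervals of the ZNF and the other genes overlapped. Of the 23 shared sites, 7 held a RUNX1 peak (30.4%, 15.6% to 50.9%), against 105 of 399 sites of the other genes (26.3%, 22.2% to 30.8%). At sites near a TSS the counts were 3 of 16 for ZNF genes and 49 of 248 for the others (18.8% and 19.8%). Farther out they were 4 of 7 and 56 of 151 (57.1%, 25% to 84.2%, and 37.1%, 29.8% to 45%). A shared site with RUNX1 was present for 6.31% of ZNF genes (3.09% to 12.4%), against 11.6% of the other genes and 11% of all. ZNF genes on other chromosomes had one in 13 of 197 cases (6.6%, 3.9% to 11%), so this low share was not particular to chromosome 19.

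Along the chromosome, 91 of the 111 ZNF genes fell into 6 clusters, defined as at least 5 genes with gaps of at most 1000000 bp between starts. The clusters differed in how many of their members had a shared site. The cluster from ZNF653 to ZNF791 (chr19:11616333-12721796) had one for 6 of 11 members (54.5%), while the cluster from ZNF146 to ZNF540 (chr19:36705473-38093779) had one for 0 of 11. The cluster from ZNF557 to ZNF846 had 1 of 11, that from ZNF575 to ZNF296 had 3 of 13, that from ZNF175 to ZNF331 had 2 of 10 and that from ZNF628 to ZNF446 had 7 of 35. Outside the clusters 2 of 20 ZNF genes had a shared site, and over all named ZNF genes the share was 18.9%. These counts are on the base of named genes. Of the RefSeq ZNF genes in the ZNF653 to ZNF791 stretch, 6 of 25 had a shared site (24%). In the other clusters the RefSeq shares ran from 0% to 12.5%, against 8.54% over all RefSeq ZNF genes of the chromosome.

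Other genes inside the same stretches were few in some clusters. In the ZNF653 to ZNF791 cluster 1 of 4 other genes had a shared site, and in the ZNF557 to ZNF846 cluster 15 of 38. The ZNF146 to ZNF540 stretch of 1.39 Mb held 1 other gene, with no shared site. In control cells the member with the most tags was ZNF414 with 97 tags in the first cluster, ZNF627 with 268 in the second, ZNF296 with 92 in the fourth, ZNF175 with 631 in the fifth and ZNF444 with 160 in the sixth. The third cluster had no control cell peak.

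Peak density separated the stretches further. Counting peaks of any gene, the ZNF146 to ZNF540 cluster had 7.92 peaks per Mb in replicate 1, 0.72 in replicate 2 and 0 in control cells and for RUNX1. Chromosome 19 between its first and last peak had 43.1, 12.7, 13.8 and 3.54 peaks per Mb in the 4 lists. The cluster from ZNF575 to ZNF296 was near that level with 48.4, 12.9, 13.6 and 3.87 peaks per Mb, and the cluster from ZNF557 to ZNF846 had 43.4, 15.3 and 14.6 SKI peaks per Mb and 6.76 for RUNX1, above the level of the chromosome in each list. The clusters from ZNF653 to ZNF791, ZNF175 to ZNF331 and ZNF628 to ZNF446 were below the level of the chromosome in each list. They had 21.7, 23 and 26.7 peaks per Mb in replicate 1 and 8.14, 2.04 and 6.34 in control cells. Most cluster stretches were thus low in peaks of any gene, but not all. In replicate 1 the ZNF members held 12 peaks in the ZNF557 to ZNF846 cluster, against 122 of any gene. In the ZNF575 to ZNF296 cluster they held 17, against 75. Clusters were built only from ZNF genes that a list names.

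The stretch from ZNF101 to ZNF254, chosen after its values were seen, had the lowest peak density of the stretches measured. From the ZNF101 start onwards, over 4.44 Mb, it held 16 peaks in replicate 1, 1 in replicate 2 and 0 in control cells and for RUNX1, which is 3.61 peaks per Mb in replicate 1. The window begins at the ZNF101 TSS and so leaves out the promoter peaks of ZNF101 given above, which lie just before it in replicate 2, control cells and the RUNX1 list. The RefSeq table has 37 ZNF genes there, of which 6 were named in a list (16.2%, 7.65% to 31.1%). In the ZNF557 to ZNF846 cluster 11 of 15 RefSeq ZNF genes were named (73.3%, 48% to 89.1%), and in the ZNF175 to ZNF331 cluster 10 of 39 (25.6%, 14.6% to 41.1%).

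**Figure D5:**
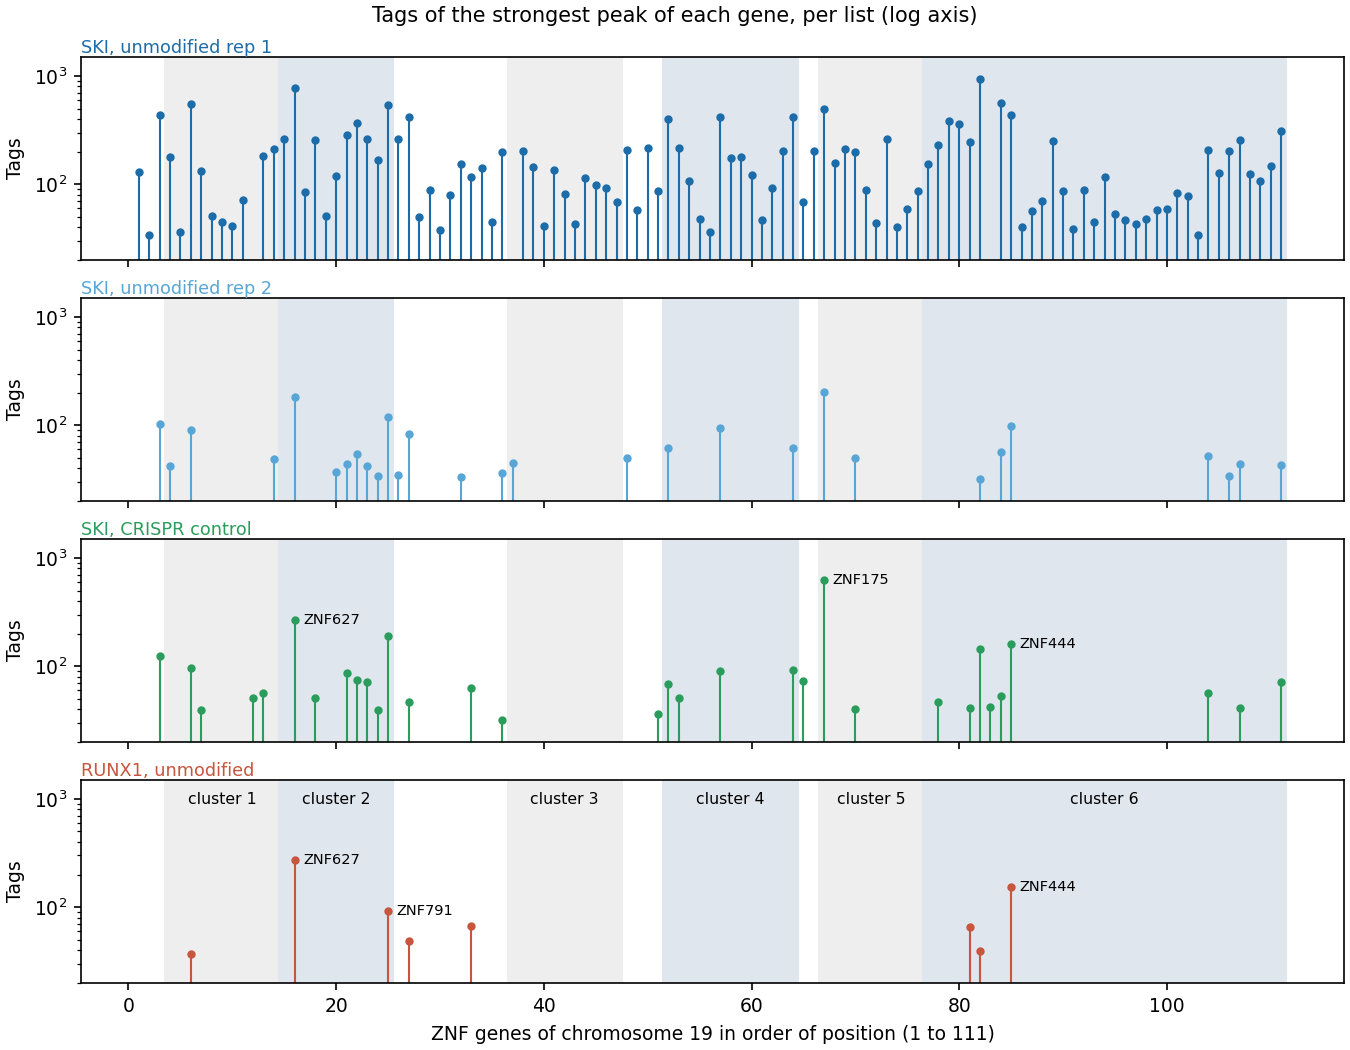
Tags of the strongest peak (y axis, log scale) of each of the 111 ZNF genes in their order along chromosome 19 (x axis), with 1 panel per list and the 6 clusters shaded. The third cluster has no peak in control cells or for RUNX1. Tags are compared within a panel only, and ZNF175 has the most in control cells, with 631.

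Groups of ZNF genes known by function are small, and their counts are given as a description. Of 18 ZNF genes of chromosome 19 listed as lacking a KRAB domain, 16 were named in a list, 6 had a shared site and 5 had a RUNX1 peak. The 6 are 37.5% of those named, against 18.9% of all named ZNF genes and 35.4% of all named protein_coding genes of the chromosome. They are 33.3% of the list, against 8.54% of all RefSeq ZNF genes of the chromosome. Among the 6, ZNF580 and ZNF581 count for the same joined site, and ZNF581 is named there by a control cell peak alone. The 5 with a RUNX1 peak are ZNF414, ZNF444, ZNF507, ZNF580 and ZNF784. A RUNX1 peak was found for 7.21% of all named ZNF genes and 13.1% of all named protein_coding genes of the chromosome. The strongest of the 18 in replicate 1 were ZNF444 (78.45-fold), ZNF580 (68.75-fold), ZNF787 (61.87-fold) and ZNF414 (61.75-fold). Of 16 genes related to ZNF224, whose KRAB protein is known as a transcriptional repressor, 9 were named and 1, ZNF230, had a shared site. That is 6.25% of the list, against 8.54% of all RefSeq ZNF genes of the chromosome. It is 11.1% of those named, against 18.9% of all named ZNF genes. ZNF225 (26.48-fold), ZNF224 (22.15-fold) and ZNF155 (16.8-fold) had a peak in replicate 1 alone.

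Of 7 genes whose proteins are known to bind retroelements, 2 were named and 0 had a shared site, against 45.1% named and 8.54% with a shared site over all RefSeq ZNF genes of the chromosome. ZNF649 had 37.1-fold and ZNF417 had 9.17-fold, both in replicate 1 alone and with 156 and 34 tags.

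Zinc finger genes of chromosome 19 with other symbols were named in 12 of 24 cases, and 6 had a shared site. The 6 are 25% of the list, against 25.2% of the RefSeq genes of the chromosome without a ZNF symbol. They are 50% of those named, against 37.7% of the named protein_coding genes of the chromosome without a ZNF symbol. The strongest in replicate 1 were KLF2, a regulator of endothelial and lymphocyte quiescence (98.86-fold), ZFP36, which encodes the mRNA decay factor tristetraprolin (72.49-fold), ZBTB45 (55.55-fold) and WIZ, a partner of the histone methyltransferases G9a and GLP (51.56-fold). KLF2 and ZBTB45 also had a RUNX1 peak, of 27.06-fold and 10.42-fold. That of KLF2 lay 14181 bp from a TSS, whereas its strongest replicate 1 SKI peak lay at -83 bp. A RUNX1 peak was found for 13.1% of all named protein_coding genes of the chromosome.

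Of 21 genes listed here with the KRAB corepressor pathway, on any chromosome, 20 were named, 10 had a shared site and 2 had a RUNX1 peak. The 10 are 50% of those named, against 35.9% of the 13808 protein_coding genes named on any chromosome. A site counts for every gene that a peak in it names. CBX3, with a peak in control cells only, and HDAC2, with one in replicate 1 only, are thus among the 10. For RUNX1 the share over all chromosomes was not computed, and on chromosome 19 it was 13.1% of named protein_coding genes. DNMT1, the maintenance DNA methyltransferase, was the strongest with 101.4-fold, 49.85-fold and 18.83-fold in replicate 1, replicate 2 and control cells. TRIM24, a relative of TRIM28, had 76.66-fold, 18.96-fold and 10.11-fold. CHD4, the remodeller of the NuRD complex, had 51.18-fold, 11.81-fold and 8.52-fold, and ATF7IP, a partner of SETDB1, 49.5-fold, 17.59-fold and 7.94-fold. These are the strongest peaks per list and need not be at the same place. Those of CHD4 lay at -6607 and -6575 bp from a TSS in the unmodified replicates and at 142 bp in control cells. TRIM28 itself, on chromosome 19, had 23.03-fold in replicate 1 and 6.32-fold in replicate 2 with no peak in control cells. SETDB1 had 33.12-fold and 9.43-fold, likewise with none in control cells. TRIM28 and SETDB1 are named after their values were seen.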

How the data were processed

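SKI and RUNX1 ChIP-seq peak lists of HL60 cells were analysed, 1 list per sample and 4 in all, with 10 of 14 samples not analysed here. The submitters' processing notes list MACS 1.4, Bowtie2, deepTools and bcl2fastq and the build hg19 (GRCh37). No order or setting is given in the sources used here. Per the file headers, each deposited peak has a tag count, a fold enrichment over background and a −log10 p, which stops at 310, and the authors' annotation gives the nearest transcript, its distance and a position class. These are the authors' values per peak. Peaks were called per sample, and depth is unknown, so the precision of a level cannot be stated.

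Computed here were ZNF membership by symbol, shared sites (peaks joined where they overlap by at least 1 bp, with all 3 SKI lists present), shares with 95% Wilson intervals, medians with order-statistic intervals, clusters, and motif matches in RefSeq promoters. No p-value was computed. The members and gene lists were chosen with earlier results of these data known, and the gene lists come from general knowledge. Named were the 10 genes whose shared sites rank best in all 3 SKI lists, every gene with a RUNX1 peak, the 5 with the most SKI peaks (6, with a tie), the member of each cluster with the most control cell tags, and up to 4 genes per gene list by fold. Joining, clustering and interval steps were tested on simulated data. Alternatives covered the −log p threshold, list length, leaving out each SKI list, summit distance, distance to the TSS, tags and cluster gaps. Python 3.11.15, pandas 2.3.3, numpy 2.4.6, scipy 1.17.1 and matplotlib 3.10.9 were used.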

Additional observations from a re-analysis of the deposited data

How the results depend on the processing

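Of 74 values recomputed under other settings, 60 stayed within their limits (1.5 times a count, or the interval of a share, median or difference) and 14 moved. The differences in share for shared SKI sites and for RUNX1 peaks kept their sign under every setting run. With SKI lists of equal length (5581 peaks), 6 ZNF genes had a shared site and the difference from the other genes was -7.79 percentage points. Of their few sites 71.4% (35.9% to 91.8%) held RUNX1, and the share for the other genes was not computed under this setting. The TSS class took 40%, 30% and 30% of SKI peaks in replicate 1, replicate 2 and control cells. These shares were below those of the other genes in place of above them, with intervals that overlap. Median tags were 518, 97 and 134 in the same order. Lists of equal length hold fewer and stronger peaks by construction. With peaks at most 1000 bp from the TSS, 3 ZNF genes had a RUNX1 peak and the TSS class took 100% of SKI peaks in each list, as that limit dictates. Leaving out 1 SKI list at a time gave 20 to 32 ZNF genes with a shared site (32 without replicate 2 of unmodified cells), differences of -19.2 to -16.7 percentage points and a RUNX1 share of 20.6% to 25%. Gaps of 500000 or 250000 bp each gave 7 clusters, with 85 and 68 members. No paired analysis was possible because replicate number 1 is the only one that the SKI groups have in common.

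ZNF genes are close copies of each other, and how reads that fit several copies were placed is not given in the sources used here, so its part in their low counts was not tested. IgG and SKI-deleted cells were not analysed here. A difference between unmodified and control cells has no replicate check in control cells, and depth, which the lists do not give, cannot be told apart from binding where a gene has no peak.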
